A study of Mus musculus with 4 samples.

Results

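Follicular helper-like and memory CD4 T cells were examined in lymph nodes that drain a melanoma. They were picked cell by cell from raw counts of unique molecular identifiers (UMIs, 1 per captured RNA molecule). A cell was taken when it had at least 300 genes and at most 10% mitochondrial UMIs, at least 1 UMI of the T cell receptor subunit Cd3e, and none of Cd8a, Cd8b1, Cd79a, Foxp3, Trdc or Mki67. It also had to show at least 3 of the 9 marker genes Izumo1r, Maf, Icos, Sh2d1a, Cxcr5, Pdcd1, Il21, Bcl6 and Tox2, and fewer than 3 of the receptor-induced genes Nr4a1, Egr2, Egr3, Nfkbid and Hivep3. The rule found 326 cells, called members below, among 26096 filtered cells, which is 1.25%. Because measured values chose the members, the levels of the rule's genes are a description and carry no test.

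The treated group held 2 C57BL/6J mice with B16F10 melanoma, a transplantable tumour line, in both thighs. From day 9 their drinking water held 2 mg/ml of indoximod, which blocks the IDO pathway of tryptophan breakdown, and they were injected daily with 350 ug of ibrutinib, which blocks the kinase BTK. On day 10 they were given 150 mg/kg of cyclophosphamide, a DNA-alkylating drug. The control group held 2 untreated mice of the same strain with the same tumours. Tumour-draining inguinal nodes were taken from both groups 48 hours after that dose and profiled with 10x Genomics 3' chemistry. Each barcode carries a library number from 1 to 4 and nothing that ties the library to a mouse or a group, so the effect of treatment is not analysed here, and the libraries are given one by one and never averaged as replicates.

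Follicular helper T cells enter the B cell follicle and help B cells form germinal centres. They are drawn there by the chemokine receptor CXCR5, depend on the transcription factor BCL6, and signal to B cells through interleukin 21, interleukin 4 and CD40 ligand. ICOS, a costimulatory receptor, and SAP, the adaptor encoded by Sh2d1a that serves receptors of the SLAM family, sustain their contact with B cells. Memory CD4 T cells are former responders that carry CD44 and often trafficking receptors such as CXCR3, CXCR6 and CCR6. Regulatory T cells share ICOS, c-MAF and folate receptor 4, the product of Izumo1r, with both.

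The libraries held 6978 to 9831 barcodes and 39589629 to 53643414 UMIs, and 5667, 5758, 6335 and 8336 cells of libraries 1 to 4 passed the filter. Members had a median of 6443 UMIs and 1983 genes per cell, against 5238.5 UMIs and 1532.5 genes in marker-free CD4 T cells, the 1814 cells that passed the same gate with none of the 9 markers. The 291 Foxp3 T cells, which met the gate but for at least 1 UMI of Foxp3, had a median of 5242 UMIs. The doublet caller Scrublet marked 0 of the 326 members. Among 86 barcode sequences that occur in more than 1 library, 4 belonged to members. In 6 members (2, 1, 0 and 3 in libraries 1 to 4) genes of B, myeloid or erythroid cells made up at least 0.5% of UMIs, and these are called mixed members. A single mixed member of library 2 held 19638 globin-list UMIs of its 24693, and the values most moved by these 6 cells are also given without them.

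Members took different shares of the 4 libraries. They numbered 109 or 1.92% of filtered cells in library 1 (exact 95% Clopper-Pearson interval 1.58% to 2.32%) and 95 or 1.65% in library 2 (1.34% to 2.01%). In library 3 they numbered 69 or 1.09% (0.848% to 1.38%), and in library 4 there were 53 or 0.636% (0.477% to 0.831%). The intervals of libraries 1 and 2 overlapped each other, and neither overlapped that of library 4. The intervals cover counting error only. The members' median depth was 6926, 6208, 6394 and 5931 UMIs in libraries 1 to 4, and a deeper cell shows 3 markers more easily. After every cell was thinned to 2000 UMIs, with 896 shallower cells left out, 24, 29, 17 and 16 cells met the rule, or 0.441%, 0.523%, 0.276% and 0.198%. Thinning kept libraries 1 and 2 above libraries 3 and 4, with intervals of library 2 (0.351% to 0.751%) and library 4 (0.113% to 0.322%) that did not overlap. The thinned interval of library 1 (0.283% to 0.655%) overlapped those of all other libraries, library 4 included. Marker-free cells did not follow that order, with 6.88%, 5.85%, 8.13% and 6.86% in libraries 1 to 4, nor did Foxp3 T cells, with 0.988%, 1.23%, 1.22% and 1.04%.

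The B cell side of the germinal centre was counted beside the members. B cells, here with Cd79a and no Cd3e, were called germinal centre B-like when they showed at least 3 of Mef2b, S1pr2, Rgs13, Gcsam, Fas and Mybl1. They numbered 133, 138, 5 and 3 cells, or 6.14%, 6.47%, 0.230% and 0.0993% of B cells in libraries 1 to 4. Libraries 3 and 4 thus held almost no germinal centre B-like cells, but 69 and 53 members. Germinal centre B-like cells had a median of 13232 UMIs, more than any T cell class here.

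**Figure D1:**
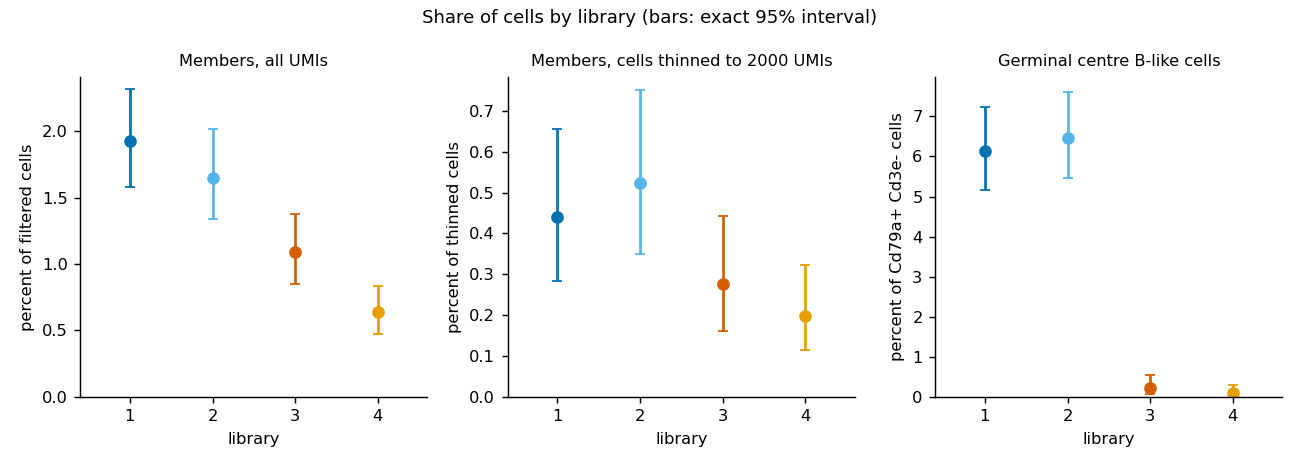
Share of members among filtered cells with all UMIs (left) and with every cell thinned to 2000 UMIs (middle), and share of germinal centre B-like cells among Cd79a+ Cd3e- cells (right), by library, with exact 95% intervals on linear axes in percent. Members lie between 0.636% in library 4 and 1.92% in library 1, and germinal centre B-like cells are at 6.14% and 6.47% in libraries 1 and 2 against 0.230% and 0.0993% in libraries 3 and 4.

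Most members met the rule narrowly. Exactly 3 markers were detected in 206 members (63.2%), 4 in 79 (24.2%), and 5 or more in the rest, with all 9 in 1 cell of library 1. Just outside the rule stood 749 cells with 2 markers and 1701 with 1. The commonest set was Izumo1r, Icos and Sh2d1a with no other marker, in 61 members (18.7%), 21, 15, 15 and 10 of them in libraries 1 to 4. None of those 3 genes is restricted to follicular helper cells. At least 1 of Maf, Cxcr5, Pdcd1, Il21, Bcl6 and Tox2 was present in 265 members.

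The receptors and adaptors of the rule were the most widely detected. Izumo1r (chr9:14885814-14903949, minus strand), which encodes folate receptor 4, had a UMI in 260 members, or 79.8%. Sh2d1a (chrX:42502453-42529330, plus strand), the SAP adaptor, had 1 in 259 (79.4%), and Icos (chr1:60977927-61000320, plus strand) in 246 (75.5%). These positions are from the GENCODE vM21 annotation of mm10. In B cells, which are not a usual source of these RNAs, the shares were 1.14% for Izumo1r, 1.01% for Sh2d1a and 0.737% for Icos at a median of 3863 UMIs. Members were chosen by these genes, so their higher shares in members were set by the rule. The level of Izumo1r was 360.1, 548, 347 and 227 counts per 1000000 UMIs of the class (CPM) in members of libraries 1 to 4, lowest in library 4. Icos stood at 238, 259, 339.9 and 256 CPM, highest in library 3, and Sh2d1a at 251, 269, 261 and 189.7 CPM.

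The inhibitory receptor and the chemokine receptor were found in fewer members. Pdcd1 (chr1:94038305-94052553, minus strand), which encodes PD-1, had a UMI in 57 members (17.5%), 19, 20, 8 and 10 by library, and in 0.0843% of B cells. Cxcr5 (chr9:44511787-44561877, minus strand) had 1 in 48 members (14.7%), 21, 17, 7 and 3 by library. B cells use this receptor too and carried it in 27.0% of cells. Its level in members was 37.3, 38.4, 18.1 and 7.90 CPM in libraries 1 to 4, so the follicle-homing receptor was lowest in library 4, where only 3 cells carried it. Cxcr5 and Pdcd1 occurred together in 14 members (8, 4, 2 and 0). That pair is the usual surface definition of follicular helper cells.

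The transcription factors split in the same manner. Maf (chr8:115682942-115707794, minus strand), which encodes c-MAF, a driver of interleukin 21 and interleukin 4, was present in 186 members (57.1%) at 341, 368, 249 and 203 CPM in libraries 1 to 4. Bcl6 (chr16:23965052-23988852, minus strand), the lineage-defining repressor, was present in 69 (21.2%) at 34.9, 26.1, 47.6 and 36.9 CPM. Bcl6 was highest in library 3 and did not share the low value that Cxcr5 had in library 4. Bcl6 was found in 12.2% of B cells and 4.15% of CD8 T cells, so a UMI of it alone does not mark the lineage. Tox2 (chr2:163203125-163324170, plus strand), a factor that promotes the follicular helper fate, was present in 27 members (8.28%).

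The helper cytokines were rare. Il21 (chr3:37222759-37232636, minus strand) had a UMI in 17 members (6, 7, 2 and 2), of which 15 also had Maf. Il4 had 28 counts in 18 members (5, 9, 3 and 1 by library), or 12.2 CPM (exact Poisson 95% interval 8.08 to 17.6), whereas marker-free cells had 0 counts, with an upper bound of 0.384 CPM. Ifng, the Th1 cytokine, had a UMI in 8 members (3, 5, 0 and 0), Il10 in 3 (1, 2, 0 and 0). Il17a, the Th17 cytokine, had 0 counts in members, with an upper bound of 1.60 CPM. Il4, Il21 and Ifng were each found in more members of libraries 1 and 2 than of libraries 3 and 4, which also held fewer members.

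**Figure D2:**
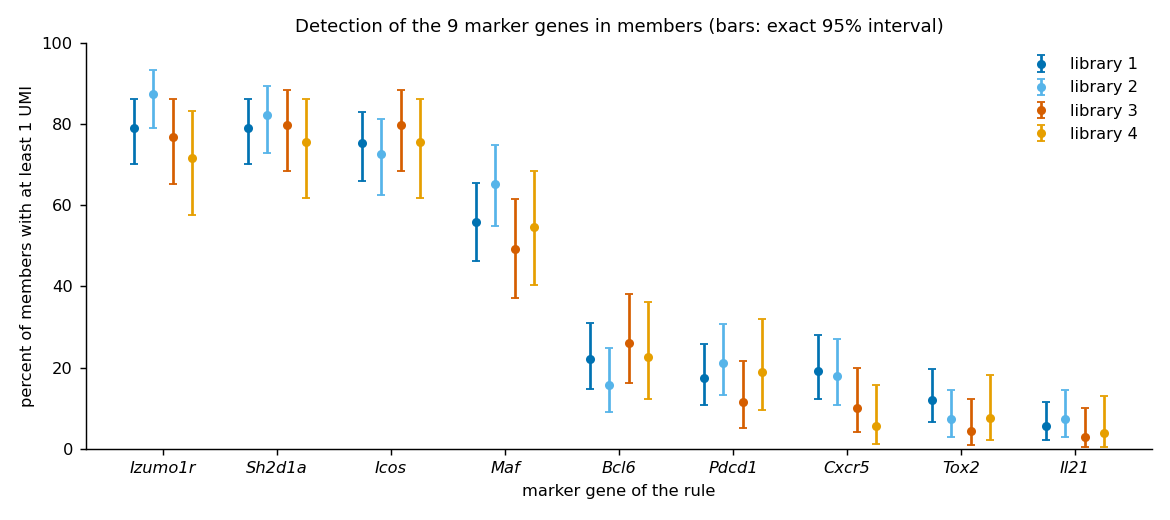
Percent of members with at least 1 UMI of each of the 9 marker genes of the rule, by library, with exact 95% intervals. Izumo1r, Sh2d1a, Icos and Maf are found in about as many members in each library, with overlapping intervals, and Cxcr5 is lowest in library 4, where 3 members carry it.

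The label was checked against its markers. Cd4, the coreceptor that the rule does not use, had a UMI in 61.0% of members, 49.8% of marker-free cells and 45.0% of Foxp3 T cells, against 7.98% of CD8 T cells (median 7145 UMIs) and 1.06% of B cells. With cells thinned to 2000 UMIs, Cd4 was found in 22.9% of members, 23.9% of marker-free cells and 22.5% of Foxp3 T cells, shares close to each other at equal depth. Of the label's 5 markers, Cxcr5 was the least detected. A UMI of Il2ra or Ikzf2, genes of regulatory T cells, was present in 138 members (42.3%; 49, 42, 29 and 18 by library), and of both in 37. Their transcript of Foxp3 was 0 by the rule, so whether they were regulatory T cells with undetected Foxp3 was not tested. Gamma-delta T genes summed to 25.3, 30.7, 72.5 and 65.9 CPM in members by library, and to 3.68 to 5.15 CPM in marker-free cells. NK and innate-like T genes summed to 77.1, 70.6, 63.4 and 261 CPM (193 CPM in library 4 without mixed members), and to 30.1 to 63.3 CPM in marker-free cells. Whether some members were such cells, and raised the Th17-list and memory genes below, was not tested. A UMI of Cxcr5, Bcl6 or Il21, the genes closest to the follicular helper fate, was present in 117 members (35.9%). At this depth a low RNA can go undetected, so the remaining members cannot be called negative for these genes.

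Of the receptor-induced genes that the rule limited, Nr4a1, Egr2 and Egr3 were rare in members. Nr4a1 had a UMI in 10 members, Egr2 in 13 and Egr3 in 11, genes that T cells switch on within hours of antigen recognition. Nfkbid and Hivep3 were found in more members, 39 and 57. Egr3 stood at 9.12 CPM in members and at 459 CPM in the 83 cells that the limit kept out, with at least 3 of these genes. Those cells had Izumo1r in 44.6%, Icos in 38.6% and Maf in 10.8%.

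Levels of genes outside the rule moved with the number of markers. In cells with 0, 1, 2, 3 and 4 or more markers, Cd200, a ligand that dampens myeloid cells and is high on follicular helper cells, stood at 8.95, 16.6, 33.6, 88.2 and 218 CPM. Cd44, the adhesion receptor of antigen-experienced T cells, stood at 17.9, 26.3, 42.7, 90.3 and 105 CPM, and Ikzf2, which encodes Helios, at 16.9, 45.5, 89.1, 187 and 480.2 CPM. Igfbp4, a gene of resting naive T cells, ran the other way at 335, 351, 286, 164 and 55.2 CPM, as did Lef1, a naive T cell transcription factor, at 536, 519.7, 473, 311 and 221 CPM. Tcf7, which encodes TCF-1 and is kept in naive, follicular helper and memory cells, did not order by markers, at 394, 403, 393, 336 and 432 CPM. Cxcr6, a tissue-homing chemokine receptor, was highest with exactly 3 markers (91.0 CPM) and lower with 4 or more (56.4 CPM). The median depth of these cells was 5238.5, 5625, 5964, 6495.5 and 6195 UMIs. All these levels were pooled over libraries, and the mix of libraries changed with the number of markers. Libraries 1 to 4 gave 390, 337, 515 and 572 cells with 0 markers and 66, 52, 50 and 38 with 3. With 4 or more they gave 43, 43, 19 and 15. The part of this mix in the levels was not tested.

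Against marker-free CD4 T cells, members had a broad excess of memory, follicular helper and regulatory T genes and less of a few naive genes. A library was usable for a gene if members and the other class together had 10 counts or more. The gene was called when 3 or more libraries were usable and all of these differed by 1.5-fold or more the same way. This is a rule of size and not a significance test, since the classes come from the same libraries and the rule used this contrast. Of 8828 genes tested, 363 were higher (4.11%) and 58 lower (0.657%), so 86.2% of calls were higher. With TMM scaling, which moves the median log2 ratio of all genes by -0.26, 208 were higher and 171 lower, and 54.9% of calls were higher. The median log2 ratio over all genes tested was 0.22. A log2 ratio below is taken over the pooled libraries and followed by the lowest and highest value of the libraries that entered the call.

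Follicular helper genes that the rule did not use were higher in 8 of 17 tested, with a median log2 ratio of 1.36, and lower in 0. Cd200 (chr16:45382135-45409053, minus strand) stood at 143, 219.5, 81.6 and 42.2 CPM in members of libraries 1 to 4 and at 8.73, 8.36, 6.63 and 11.6 CPM in marker-free cells. The classes did not overlap, and members of library 4 had the smallest excess. The log2 ratio was 3.93 (1.86 to 4.72). Nt5e, which encodes the ectoenzyme CD73, stood at 79.5, 76.8, 52.1 and 13.2 CPM in members and at 2.76, 6.69, 2.95 and 2.74 CPM in marker-free cells, again lowest in members of library 4. Its log2 ratio was 4.14 (2.27 to 4.85). Slamf6, a SLAM receptor that signals through SAP, stood at 334, 313, 154 and 200.2 CPM in members and at 97.9, 134, 93.9 and 93.0 CPM in marker-free cells, a log2 ratio of 1.41 (0.71 to 1.77). Slamf6 lost its call under TMM scaling, in cells with at least 4000 UMIs and at a 2-fold threshold. The other called genes of the list were Hif1a (log2 ratio 1.91), the oxygen-sensing factor, Tbc1d4 (2.79), Irf4 (3.76), P2rx7 (3.27), an ATP-gated channel, and Sostdc1.

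Sostdc1 (chr12:36314139-36318452, plus strand), a secreted antagonist of Wnt and BMP signals made by a subset of follicular helper cells, was held by few cells. Its 136 counts came from 10 members (3, 6, 1 and 0 by library), and a single cell held 42 of them. Marker-free cells had 1 count, so the levels are given as 59.1 CPM (exact Poisson interval 49.6 to 69.9) in members and 0.104 CPM (0.00263 to 0.580) in marker-free cells. The interval treats UMIs as independent, which UMIs of so few cells are not. Ascl2, a transcription factor that induces Cxcr5, had 22 counts in 12 members (9, 3, 0 and 0 by library) and 0 counts in marker-free cells. Both genes were absent in members of library 4.

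Other SLAM family genes did not share the excess of Slamf6, which was the only 1 of 8 called. Cd40lg, the ligand that licenses B cells, stood at 106, 70.6, 90.6 and 84.3 CPM in members and at 72.6, 66.3, 79.9 and 70.8 CPM in marker-free cells and was not called.

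Memory and effector genes were higher in 15 of 19 tested (median log2 ratio 2.41) and lower in 0. Cd44 stood at 65.0, 93.6, 107 and 153 CPM in members and at 21.1, 16.2, 16.6 and 17.8 CPM in marker-free cells. S100a4, a calcium-binding protein of memory T cells, stood at 351, 219.5, 539 and 922 CPM in members and at 70.3, 19.5, 18.8 and 68.7 CPM in marker-free cells, and members of library 4 were at 696 CPM without the mixed cells. Cxcr6 stood at 57.8, 49.1, 156 and 81.7 CPM in members and at 3.22, 0.557, 1.10 and 6.15 CPM in marker-free cells, a log2 ratio of 4.70 (3.73 to 7.15). Members of libraries 3 and 4 had more Cd44, S100a4 and Cxcr6 than those of libraries 1 and 2, the opposite order to Cd200 and Nt5e. The log2 ratio was 3.93 for Lgals3 (2.16 to 5.32), a galectin, and 5.70 for the chemokine receptor Ccr2, which had 0 counts in marker-free cells of library 4. Crip1, Il7r, Itga4 and Vim were not called. Il7r, the interleukin 7 receptor that both naive and memory cells need, stood at 335, 409.9, 691 and 569 CPM in members and at 389.6, 385, 403 and 440.4 CPM in marker-free cells.

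Naive and homing genes were lower in 2 of 14 tested and higher in 0, and their median log2 ratio was -0.64. Igfbp4 stood at 129, 98.2, 111 and 171 CPM in members and at 292, 306, 338 and 383 CPM in marker-free cells, a log2 ratio of -1.44 (-1.64 to -1.16). Lef1 stood at 285, 239, 313 and 285 CPM in members and at 482, 563, 577 and 522 CPM in marker-free cells, a log2 ratio of -0.95 (-1.23 to -0.76). Neither gene overlapped between the classes. Ccr7, which guides T cells into the node, lay at 153, 147, 143 and 327 CPM in members and 241, 260.2, 267 and 288 CPM in marker-free cells and was not called.

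Genes of other helper classes were higher in part. Th1 genes were higher in 4 of 6 tested, among them the chemokine receptor Cxcr3 (log2 ratio 4.01, 3.05 to 5.48), which stood at 41.0, 36.8, 38.5 and 36.9 CPM in members and at 0.919, 4.46, 1.47 and 3.08 CPM in marker-free cells. The interleukin 18 receptor genes Il18r1 (1.65) and Il18rap (2.92) were called with it. The 4 Th17 genes with enough counts of 11 were all higher: Ccr6, the receptor for the chemokine CCL20, with a log2 ratio of 4.92, Rora with 3.02, Tmem176a with 2.66 and Tmem176b. Il17a was among the 7 without enough counts. Ccr4 was called from the Th2 list, with 39 counts in members and 3 in marker-free cells, and no fold is given. Zbtb16, which encodes PLZF, the factor of innate-like T cells, had 17 counts in 9 members (1, 3, 3 and 2 by library), or 7.38 CPM (exact Poisson interval 4.30 to 11.8), whereas marker-free cells had 2 counts.

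Regulatory T genes were higher in 10 of 11 tested, with a median log2 ratio of 3.11. Ikzf2 (chr1:69531214-69687245, minus strand) stood at 307, 298, 406 and 139.6 CPM in members and at 17.9, 19.5, 19.1 and 12.3 CPM in marker-free cells. Ctla4, the inhibitory receptor for CD80 and CD86, stood at 67.5, 75.2, 68.0 and 76.4 CPM in members and at 1.38, 2.79, 2.58 and 7.18 CPM in marker-free cells, a log2 ratio of 4.25 (3.41 to 5.61). Tnfrsf4, which encodes OX40, had a log2 ratio of 4.22 (3.18 to 4.86), and Nrp1, a semaphorin co-receptor, 5.44 (4.74 to 7.39). The summed level of the 14 genes of this list was 838 to 1428 CPM in members, with all 14 detected, 125 to 144 CPM in marker-free cells and 2210 to 3086 CPM in Foxp3 T cells. Members thus lay between both classes. When cells with a UMI of Il2ra or Ikzf2 were left out of both classes, 163 genes were higher, and of 28 named genes 11 kept their call and 17 lost it. Many that lost it had a pooled ratio about as large in the fewer cells left, as Nrp1 (log2 ratio 5.18), Ccr2 (5.36) and Tnfsf11 (4.00) did. The naive genes Igfbp4 (-0.76) and Lef1 (-0.58) lost the call with a smaller difference. Cd200, Nt5e, Cxcr6, Lgals3, Ctla4, Tnfrsf4 and Rora kept their call in that setting and in every other one run.

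Signalling and stress lists moved less. Receptor-induced early genes were higher in 4 of 11 tested, with Irf4, Bhlhe40 (log2 ratio 3.36) and Nfatc1 (1.49) among them, and Irf4 and Bhlhe40 rested on 12 and 13 counts in marker-free cells and lost their call without the mixed cells. Costimulation genes were higher in 4 of 11, among them Tnfsf11 (4.35), which encodes RANK ligand, and Tnfrsf9 (3.13). Genes that rise during tissue dissociation were higher in 3 of 12, namely Fosb (2.48), Fos (1.75) and Dusp1 (1.23), with a list median of 0.24. Type I interferon genes were higher in 1 of 22, Isg20 (0.92), with a median of 0.22, the same as all genes, and Isg20 lost its call without the mixed cells. Genes of the p53 response were called in 0 of 10, and of amino acid stress in 0 of 10. S phase genes were higher in 2 of 12, and B cell markers in 0 of 8.

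The targets of the treatment were looked up in members of all libraries. Btk, the kinase that ibrutinib blocks, had 5 counts in 2 members of library 4, both of them mixed members, whereas it had a UMI in 38.1% of B cells. Ido1, which encodes a tryptophan-degrading enzyme, had 0 counts in members, with an upper bound of 1.60 CPM. In the list of TEC kinases and the IDO pathway, Ahr and Blk were higher and Txk, a T cell TEC kinase, was lower (log2 ratio -0.92, -1.09 to -0.68), out of 8 tested. Blk is also on the list of gamma-delta T markers, where it was the only gene tested. Cdkn1a, a p53 target, had 15 counts in 6 members.

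**Figure D3:**
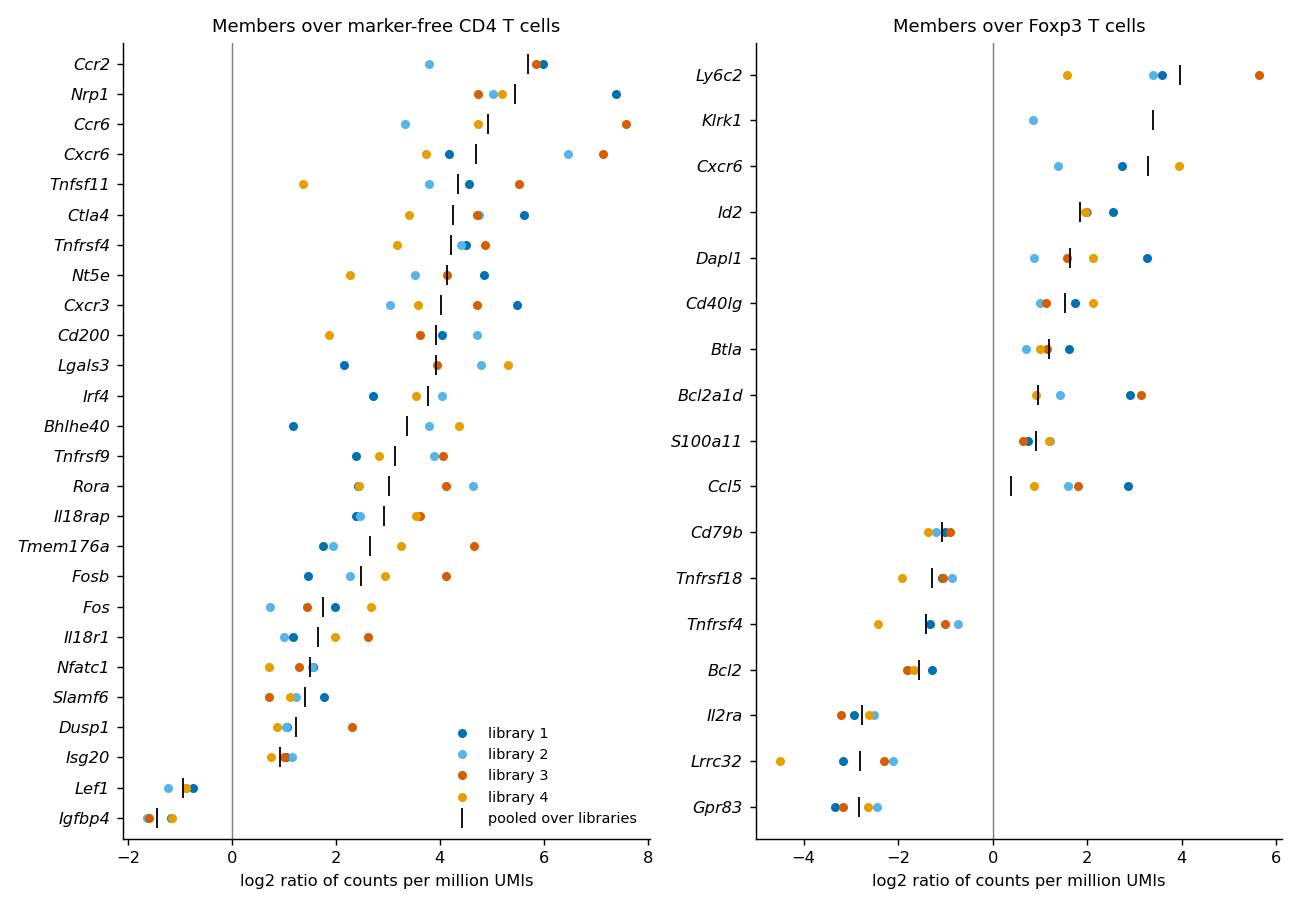
Log2 ratio of CPM in members over marker-free CD4 T cells (left) and over Foxp3 T cells (right) for the named genes with more than 3 counts in each class; points are libraries and ticks the pooled ratio, and a library with 0 counts in either class has no point. Cd200, Nt5e and Cxcr6 lie above 0 in all 4 libraries on the left, and Il2ra, Lrrc32 and Gpr83 lie below 0 in all 4 on the right.

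Foxp3 T cells share several of the 9 markers with members. The Izumo1r level was 389 CPM in members and 439 CPM in Foxp3 T cells. Cxcr5 was at 29.1 CPM in members and 5.15 CPM in Foxp3 T cells. Il21 was at 14.8 CPM in members and 0.572 CPM in Foxp3 T cells. Members were chosen by these markers and Foxp3 T cells were not, so the rule itself raises these levels in members. Whether Cxcr5 and Il21 differ between the classes at equal marker number was not tested. Of 6920 genes tested outside the rule, 71 were higher in members (1.03%) and 67 lower (0.968%).

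Regulatory T genes made up part of what members lacked: 7 of 12 tested were lower and 0 higher, with a median log2 ratio of -1.34. Il2ra, the interleukin 2 receptor alpha chain, stood at 53, 41.4, 38.5 and 42.2 CPM in members and at 406, 235, 358 and 257 CPM in Foxp3 T cells, a log2 ratio of -2.75 (-3.22 to -2.50). Lrrc32, which encodes GARP, a docking receptor for latent TGF-beta, stood at 9.64, 7.68, 11.3 and 2.63 CPM in members and at 87.0, 32.9, 56 and 59.9 CPM in Foxp3 T cells. The classes did not overlap in either gene. Both kept their call in the settings run, except that leaving out members with Il2ra or Ikzf2 gave no ratio for either. Gpr83 had a log2 ratio of -2.82, Tnfrsf4 -1.41, Tnfrsf18 -1.28 and Ikzf2 -1.40, whereas Nrp1 and Itgae were not called. Ikzf2 stood at 307, 298, 406 and 139.6 CPM in members and at 806, 715, 838 and 772 CPM in Foxp3 T cells. Bcl2, a survival factor, stood at 136, 75.2, 102 and 94.8 CPM in members and at 333, 259, 358 and 301 CPM in Foxp3 T cells, a log2 ratio of -1.56 (-1.81 to -1.29). Cd79b, a B cell receptor subunit, had 32 counts in members and 51 in Foxp3 T cells (log2 ratio -1.07). The B cell marker list summed to 340 to 1262 CPM in members and 492 to 1084 CPM in Foxp3 T cells, with all 10 genes detected in both. Without the mixed cells it summed to 452, 369, 339.9 and 407 CPM in members of libraries 1 to 4. Its part in the lower Cd79b was not tested.

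Follicular helper genes were higher in members than in Foxp3 T cells in 3 of 16 tested, namely Cd40lg, Btla and Sostdc1. Cd40lg stood at 106, 70.6, 90.6 and 84.3 CPM in members and at 31.9, 35.3, 41.4 and 19.4 CPM in Foxp3 T cells, a log2 ratio of 1.53 (1.00 to 2.12). Btla, an inhibitory receptor that meets HVEM on B cells, stood at 79.5, 69.1, 86.1 and 42.2 CPM in members and at 26.1, 42.3, 39.0 and 21.1 CPM in Foxp3 T cells, a log2 ratio of 1.19 (0.71 to 1.61). Sostdc1 had 136 counts in members and 0 in Foxp3 T cells. Cd40lg was higher in every library, and Btla was lowest in library 4 in both classes. Cd200 was not called: it stood at 143, 219.5, 81.6 and 42.2 CPM in members and at 46.4, 51.7, 48.7 and 47.6 CPM in Foxp3 T cells, so library 4 went the other way.

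Among memory genes, 3 of 19 were higher in members than in Foxp3 T cells and 1, Prdm1, was lower. Id2, a repressor that favours effector fates, stood at 220.4, 243, 385 and 445 CPM in members and at 37.7, 61.1, 97.4 and 115 CPM in Foxp3 T cells, and in both classes libraries 3 and 4 were higher. Its pooled log2 ratio of 1.84 lies below all 4 libraries (1.96 to 2.55), since each class takes another share of its cells from each library. Cxcr6 stood at 57.8, 49.1, 156 and 81.7 CPM in members and at 8.70, 18.8, 0 and 5.29 CPM in Foxp3 T cells, a log2 ratio of 3.29. S100a11 had a log2 ratio of 0.92 (0.65 to 1.21) and Dapl1, from the naive list, 1.65 (0.87 to 3.27). Cxcr6, S100a11, Cd40lg, Gpr83 and Bcl2 lost their call against the Foxp3 T cells that themselves had at least 3 markers. Against those 83 cells, 79 genes were higher in members and 80 lower. They included only 26 of the 71 genes higher against all Foxp3 T cells, and 19 of the 67 lower. Ly6c2 and Klrk1 had 102 and 55 counts in members and 5 and 4 in Foxp3 T cells, and Th17 genes were called in 0 of 4.

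Members were then split by the genes of the follicular helper core. Core-positive members, with at least 1 UMI of Cxcr5, Bcl6 or Il21, numbered 117 (42, 34, 25 and 16 by library), and core-negative members 209. Core-positive cells were 38.5%, 35.8%, 36.2% and 30.2% of members in libraries 1 to 4, a similar percentage although the members' share was not. The genes behind the split differed by library. In members of libraries 1 to 4 Cxcr5 stood at 37.3, 38.4, 18.1 and 7.90 CPM and Il21 at 18.1, 21.5, 6.80 and 5.27 CPM. Bcl6, which alone does not mark the lineage, stood at 34.9, 26.1, 47.6 and 36.9 CPM. All 3 core genes occurred together in 4 members (3, 1, 0 and 0). The median depth was 6389 UMIs in core-positive and 6489 UMIs in core-negative members. Of 4953 genes tested outside the rule, 14 were higher in core-positive members (0.283%) and 34 lower (0.686%). With TMM scaling 3 were higher, and the share of calls that were higher was 6.38% in place of 29.2%.

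Core-positive members had more Tox, a factor that acts early in follicular helper cells. Tox stood at 219, 180.2, 199.7 and 51.4 CPM in core-positive members and at 86.4, 119, 132 and 30.4 CPM in core-negative members, a log2 ratio of 0.94 (0.60 to 1.34). In both classes library 4 was lowest. Tnfsf11 stood at 39.1, 45.1, 49.9 and 0 CPM in core-positive members and at 10.0, 11.6, 24.9 and 3.80 CPM in core-negative members, and library 4, with under 10 counts, did not enter the call. Cd200 (174, 297, 156 and 25.7 CPM in core-positive members, 123, 179, 39.1 and 49.5 CPM in core-negative members) and Slamf6 were not called, and 1 of 14 follicular helper genes was. Tox lost its call under TMM scaling and in most other settings that changed the cells.

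Some memory genes and the tested Th17-list genes were lower in core-positive members. Core genes count toward the 3 markers, so core-positive members could enter with fewer of the other markers than core-negative ones. Cxcr6 stood at 3.01, 4.51, 56.2 and 25.7 CPM in core-positive members and at 94.5, 72.2, 213 and 107 CPM in core-negative members, a log2 ratio of -2.74 (-4.97 to -1.93). Il7r stood at 159, 261, 406 and 299.8 CPM in core-positive members and at 452, 487, 854 and 689 CPM in core-negative members, a log2 ratio of -1.20 (-1.51 to -0.90). S100a4 stood at 135, 13.5, 149.8 and 634 CPM in core-positive members and at 494, 326, 761 and 1050.1 CPM in core-negative members. Each of the 3 genes was lower in core-positive members within every library, and each was higher in libraries 3 and 4 than in libraries 1 and 2 within both classes. In all, memory genes were lower in 4 of 18 tested, and Th17 genes in 4 of 4: Ccr6 (log2 ratio -1.54), Rora (-1.18), Tmem176a (-2.04) and Tmem176b (-1.79). Cish, a target of cytokine signals through STAT5, had 2 counts in core-positive and 48 in core-negative members. Regulatory T genes were called in 0 of 9 and naive genes in 0 of 14. Cxcr6, Tmem176a, Tmem176b and Ccr6 lost their call when Cd4 had to be detected in every cell and with at least 4 markers. With Cd4 in every cell 17 genes were lower, 3 of them among the 34 of the main contrast. With at least 4 markers 13 were lower, 3 of them among the 34. Without library 4, 58 genes were lower.

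**Figure D4:**
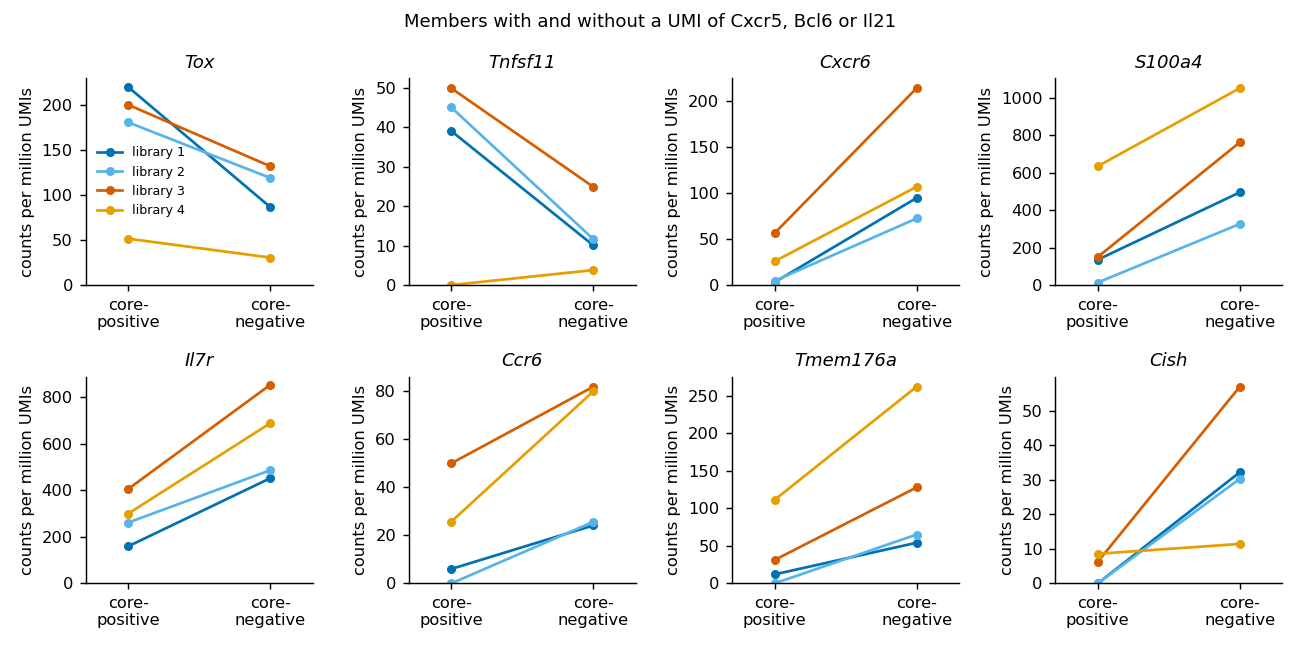
Level (CPM, linear axis from 0) of 8 genes in core-positive and core-negative members, with a line for each library. Cxcr6, S100a4, Il7r, Ccr6, Tmem176a and Cish are lower in core-positive members in every library, and Tox is higher in every library.

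Between libraries, several of the strongest contrasts came from few cells. After 10 CPM were added to each library, 272 of 3134 genes with at least 50 CPM in a library differed past 2-fold between the highest and the lowest library (8.68%), against 20 of 2377 in marker-free cells (0.841%). Members are fewer, so counting error is larger in them. The 10 largest ratios were those of Hbb-bs, Hba-a1, Hba-a2, Hbb-bt, Ccl22, Fscn1, Apol7c, Basp1, Marcks and Cst3. The globin Hbb-bs stood at 137, 16131, 0 and 21.1 CPM in members of libraries 1 to 4, and nearly all of the counts in library 2 came from the single globin-rich cell. Without the mixed cells Hbb-bs still stood at 134, 171, 0 and 15.1 CPM, from 69, 62, 0 and 3 members. In marker-free cells Hbb-bs was also higher in libraries 1 and 2, at 3399, 1173, 9.57 and 26.7 CPM in libraries 1 to 4. Ccl22, a chemokine of mature dendritic cells, stood at 2.41, 1.54, 0 and 271 CPM, and 96 of its 106 counts lay in 1 cell of library 4. Fscn1, an actin bundler of those cells, stood at 4.82, 1.54, 2.27 and 266 CPM, and at 1.23, 1.60, 2.27 and 57.3 CPM without the mixed cells. The myeloid and dendritic list summed to 152, 70.6, 102 and 1394 CPM, with 8 of 9 genes detected and C1qa at 0. Without the mixed cells it summed to 78.8, 71.8, 102 and 395 CPM, so library 4 was still the highest but at a lower level.

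Without the 6 mixed members 221 of 3094 genes passed. Ccl5, a chemokine of cytotoxic and Th1 cells, then stood at 38.2, 147, 111 and 1670 CPM, from 9, 10, 11 and 7 cells, so the high value in library 4 was that of 7 cells. The interferon-induced Ifit1 stood at 22.2, 35.1, 188 and 166 CPM in the members left and at 35.8, 47.9, 95.4 and 76.9 CPM in marker-free cells of libraries 1 to 4. Ifit1 was higher in libraries 3 and 4 in both classes. Its UMIs came from 13, 16, 23 and 20 of those members.

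The gene lists gave an order of libraries. Follicular helper genes outside the rule summed to 2024, 2278, 1493 and 1159 CPM in members of libraries 1 to 4 and to 639, 726, 676 and 715 CPM in marker-free cells. Memory and effector genes summed to 4519, 4338, 5017 and 7998 CPM in members and to 2252, 1989, 1968 and 2310 CPM in marker-free cells, and without mixed members library 4 was at 6993 CPM. The follicular helper sum was highest in libraries 1 and 2, where germinal centre B-like cells were also found, and the memory sum was highest in library 4. Without mixed members the myeloid and dendritic list still summed to 395 CPM in library 4, against 78.8, 71.8 and 102 CPM in libraries 1 to 3. Whether the cells behind it raised the memory sum of library 4 was not tested. Th17 genes summed to 147, 150, 349 and 619 CPM in members, and to 117, 156, 349 and 564 CPM without mixed members. Of the 564 CPM in library 4, Tmem176a gave 193 CPM from 8 cells and Tmem176b 154 CPM from 7 cells. A UMI of Il17a, Ccr6 or Il23r was found in 10, 8, 18 and 10 members, or 9.17%, 8.42%, 26.1% and 18.9% by library. Type I interferon genes summed to 4686, 5577, 6112 and 6405 CPM in members and to 3141, 3249, 4414 and 4072 CPM in marker-free cells. Naive genes were flat in members, at 2661, 2487, 2527 and 2814 CPM, below 3858, 4056, 4058 and 4073 CPM in marker-free cells. Treatment, mouse and preparation cannot be told apart in any of these differences.

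**Figure D5:**
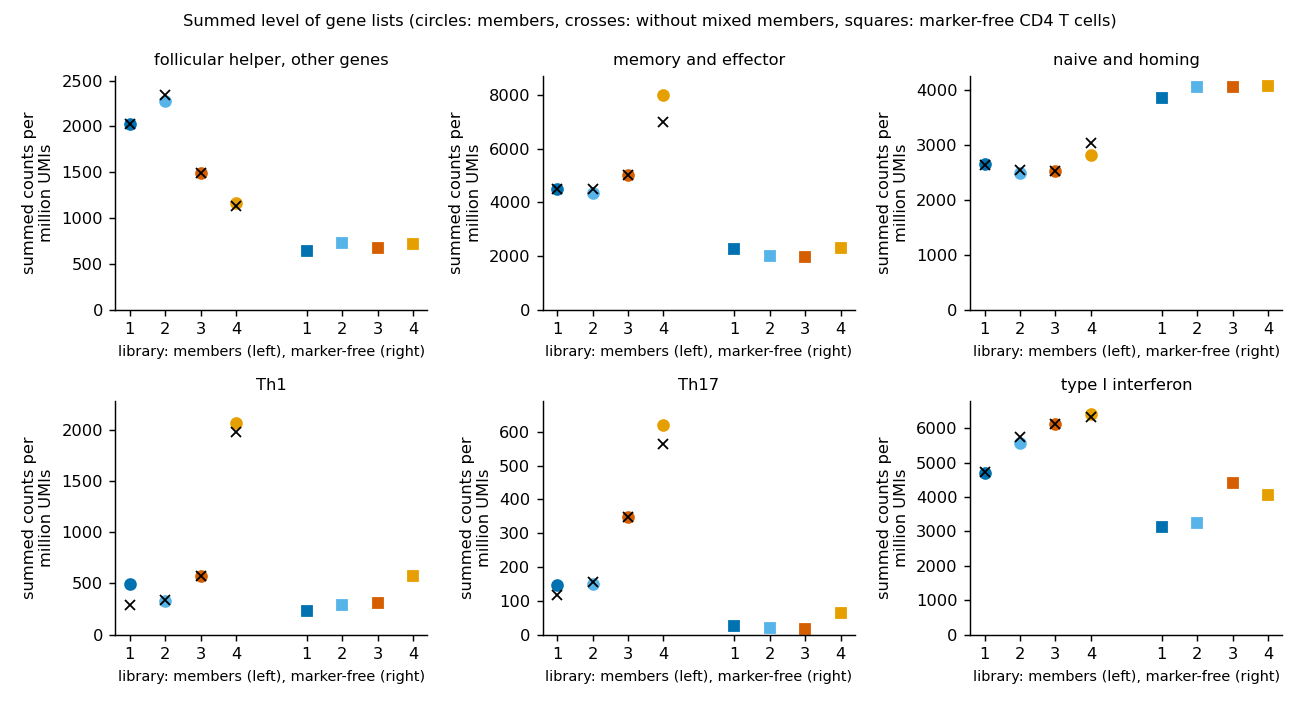
Summed CPM of 6 gene lists in members (circles), members without mixed cells (crosses) and marker-free CD4 T cells (squares), by library, on linear axes from 0. In members the follicular helper sum is 2024 and 2278 CPM in libraries 1 and 2 against 1493 and 1159 CPM in libraries 3 and 4, the memory sum is highest in library 4, and marker-free cells differ less between libraries in both lists.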

How the data were processed

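Counts of UMIs per gene and barcode were made by the authors with cellranger 5.0.0 against mm10, per the file headers and the labels, and were deposited as raw whole numbers for 31053 genes and 30824 barcodes. The chemistry was 10x Genomics 3' version 3, and whether reads were evened out between libraries is not given in the sources used here. The labels give a target of about 2000 cells for each sample. Symbols shared by more than 1 gene numbered 36 and were kept as the rows give them.

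The members, gene lists and contrasts were chosen with earlier results of these data known. For each class and library the counts were added up and expressed as CPM. No p-value is given, since libraries are not tied to mice or groups and cells are no replicates. The size rule asked for 1.5-fold, 10 counts and 3 libraries. Named genes were the rule's genes, up to 3 called genes per contrast and list with the largest log2 ratio at a prior count of 1 (at most 28 per contrast), the 10 genes that differed most between libraries, and 14 fixed genes. Further genes (among them Cd44, S100a4, Hif1a, Tbc1d4, P2rx7, Tcf7, Ccr7, Rora, Cish and Ifit1) were named after their values were seen. Some genes are not reported here. Intervals are exact at 95% and cover counting error only; a count of 0 is given with its exact Poisson bound. Doublets were scored per library with Scrublet in scanpy 1.11.5 (106, 119, 230 and 445 calls) and kept, being an alternative. Left out as alternatives were also cells under a stricter filter (500 genes, 5% mitochondrial UMIs), with under 4 markers, without Cd4 or under 4000 UMIs. Others were edgeR 4.0.16 TMM scaling, no count filter, a 2-fold threshold, each library left out, and leaving out cells with B cell transcripts other than Cd79a or with Il2ra or Ikzf2. Settings that needed Maf, Cxcr5, Pdcd1, Il21, Bcl6 or Tox2, or that left out mixed cells, were added after seeing the data. Positions came from GENCODE vM21. Software was Python 3.11.15, numpy 2.4.6, pandas 2.3.3, scipy 1.17.1, matplotlib 3.10.9 and R 4.3.3.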

Additional observations from a re-analysis of the deposited data

How the results depend on the processing

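No paired analysis was possible because the barcodes carry only library numbers and no replicate number of a group. Against marker-free cells, the 363 genes higher in members became 237 with Cd4 in every cell, 208 with TMM scaling, 680 with no filter on low counts, 174 at 2-fold and 163 without Il2ra or Ikzf2 cells. Of the 363, 155 were among those called with Cd4 in every cell and 112 without Il2ra or Ikzf2 cells. The 58 lower became 158 with at least 4 markers, 171 with TMM scaling, 427 with no filter, 17 at 2-fold and 91 to 104 with a library left out. Against Foxp3 T cells, the 71 higher became 45 under the stricter cell filter, 34 with Cd4 in every cell, 293 with no filter and 26 at 2-fold, and 65 to 101 with a library left out. Of the 71, 17 were among those called under the stricter filter, 15 with Cd4 in every cell and 42 to 55 with a library left out. The 67 lower became 210 with no filter, 24 at 2-fold and 139 without members with Il2ra or Ikzf2, and 87 to 93 with a library left out. Of the 67, 23 were among those called under the stricter filter, 23 with Cd4 in every cell and 50 to 53 with a library left out. Between core-positive and core-negative members, the 14 higher became 24 under the stricter filter, 29 to 34 with a library left out, 3 with TMM scaling, 125 with no filter, 1 at 2-fold, 25 without cells with B cell transcripts other than Cd79a and 9 without mixed cells. The genes changed as well as their number: of the 14, 0 were among those called under the stricter filter or with at least 4 markers, 2 with Cd4 in every cell, and 6 to 11 with a library left out. The 34 lower became 21 under the stricter filter, 13 with at least 4 markers, 17 with Cd4 in every cell, 276 with no filter, 13 at 2-fold and 37 to 58 with a library left out (58 without library 4). Of the 34, only 6 were among those called under the stricter filter, 3 with at least 4 markers and 3 with Cd4 in every cell. With a library left out, 18 to 30 of them were. TMM scaling moved the median of this contrast by -0.10.

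The share of members in libraries 1 to 4 was 0.759%, 0.747%, 0.2999% and 0.1799% with at least 4 markers, 1.32%, 0.9552%, 0.5683% and 0.3959% with Cd4 in every member, and 0.441%, 0.523%, 0.276% and 0.198% after thinning. Library 1 was at 1.55% with Maf, Cxcr5, Pdcd1, Il21, Bcl6 or Tox2 required, and library 4 at 0.9203% under the stricter filter. The 272 genes past 2-fold between libraries became 638 under the stricter filter, 1663 with at least 4 markers, 628 with Cd4 in every cell, 452 with Maf, Cxcr5, Pdcd1, Il21, Bcl6 or Tox2, and 88 with 50 CPM added. Ccl5 against Foxp3 T cells turned from a log2 ratio of 0.39 to -0.24 under the stricter filter, -0.028 with Cd4 in every cell, -0.99 without members with Il2ra or Ikzf2, and -0.74 against Foxp3 T cells with at least 3 markers, where Bcl2a1d turned to -0.19. Bad, lower in core-positive members, turned to 0.19 with at least 4 markers and to 0.31 with Cd4 in every cell. The causes were not tested, beyond fewer cells and fewer genes tested in the stricter settings. Of the settings tried on the named genes, 360 kept the call and 83 lost it against marker-free cells, 209 kept and 52 lost it against Foxp3 T cells, and 91 kept and 57 lost it between core-positive and core-negative members, so the last contrast is the least stable. Depth limits what is said of Il21, Il10, Ifng and Ascl2, each with fewer than 40 counts.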
